A study of Sus scrofa with 12 samples.

Results

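The vascular markers described here are RGS5, PDGFRB, FLT1, PECAM1 and VWF, 5 genes of the 6765 named on the array, whose transcripts mark the cells of small blood vessels. They were followed in Meishan pigs, a breed from China, in the longissimus dorsi, a long back muscle. All probe sets carrying one of these symbols in the 2016 annotation of the Affymetrix porcine array were taken, which gave 11 of 23999 probe sets: 1 for RGS5, 2 for PDGFRB, 3 for FLT1, 2 for PECAM1 and 3 for VWF. The genes were chosen by name, with earlier results of these data known. Muscle was sampled in the fetus at 65 days post coitus (dpc) and at 3, 60 and 120 days after birth, with 3 arrays a stage and 12 in all, and no animal was treated. Fetuses from one sow counted as a single individual. The labels call the arrays biological replicates and give no sex, and no litter after birth. The series asks how gene expression changes as this muscle develops.

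Capillaries consist of a tube of endothelial cells wrapped by pericytes. Endothelial cells carry PECAM1 (CD31), an adhesion molecule at their junctions, and VWF, the von Willebrand factor that they store and release to tether platelets. FLT1 is a receptor that binds VEGFA, the main growth factor of vessels, and holds it away from the signalling receptor KDR. Pericytes carry PDGFRB, through which PDGF-B from the endothelium recruits them, and RGS5, which shortens the signals of G protein-coupled receptors. PDGFRB is also made by fibroblasts, and VWF by megakaryocytes. In whole muscle, fewer cells of a type and less RNA per cell cannot be told apart, and this holds for every value below.

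Values are deposited intensities in array units. Array medians lay between 49.1 and 52.6. A probe set was tested if it was above the 40th percentile of its own array on at least 3 arrays, which held for 8 of the 11 and for 16166 of all 23999 probe sets. Changes are differences of log2(intensity + 21), later minus earlier stage, with the standard error (SE) of a limma fit to all 12 arrays. A call is an adjusted p under 0.05 after Benjamini-Hochberg adjustment over the 16166 probe sets. Intensities of different probe sets do not rank their transcripts by abundance. The muscle was checked by its own markers: CKM, the muscle creatine kinase, read 4577, 8162 and 4578 in the fetus and between 8321 and 9141 after birth. Of the defining markers fixed for other cell types, CSPG4, MYH11, PROX1, PF4, COL1A1 and CD68 were not among the named probe sets.

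Fetal replicates 2 and 3 each stood apart for some of the markers. Replicate 2 was the highest fetal array for RGS5, for the brighter PDGFRB probe set and for both PECAM1 probe sets. Its summed intensity over 15 muscle fibre genes was 61328, against 42992 and 43390 on the other fetal arrays, and over 13 fibroblast and matrix genes it was 29388, against 18500.4 and 21245. Replicate 3 was the highest fetal array for VWF, and its sum over 9 immune cell genes was 2846, against 362 and 361. Values without 1 of these arrays are given below where it decides a call, a direction or a list's count. The 3-prime over 5-prime signal of an actin control is a measure of RNA integrity and labelling. In stage order it averaged 2.45 ± 0.17, 3.61 ± 1.06, 5.10 ± 1.17 and 5.08 ± 0.90 (SD, n = 3 each). It was lower in the fetus than at 60 and 120 days, which were alike. At 3 days it ranged from 2.58 to 4.69 and overlapped every other stage. Another actin control averaged 0.84, 0.89, 0.89 and 0.90 in stage order. The part of RNA quality in the results was not tested.

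Across the 4 stages, 5 of the 8 tested probe sets were called by the limma F test, beside 46.9% of all tested probe sets. At 3 days against the fetus 4 were called, 3 higher (RGS5, 1 of PDGFRB and FLT1) and 1 lower (the other of PDGFRB). The background at this step was 43.0% of all probe sets called (20.3% higher, 22.6% lower), so the share among the markers lies close to that of the array as a whole. Leaving out fetal replicate 2 or 3 gave 5394 or 6796 called probe sets at this step, against 6945 with all arrays. At 120 days against the fetus it gave 6560 or 7751, against 7826. List counts without 1 of these arrays, given below, stand beside these totals. FLT1 passed the filter only through arrays after birth, so its higher value was a condition for testing it, as for 1217 probe sets in all; of the other 14949 probe sets 41.2% were called. The 3 arrays of each stage did not overlap for 3 marker probe sets that were higher and 3 that were lower at 3 days, which held for 26.7% and 26.3% of all tested probe sets. Their median log2 change was -0.22, and over all tested probe sets it was within 0.01 of 0. No marker was called at 60 days against 3 days, 120 days against 60 days or 120 days against 3 days, where 1.53%, 0% and 4.42% of all probe sets were called. At an unadjusted p under 0.05, 0 of the 8 passed in each of these 3 comparisons, beside 2680, 1021 and 3143 of all probe sets. Against the fetus, 4 were called at 60 days and 4 at 120 days, with a background of 39.1% and 48.4%: RGS5 and both PDGFRB probe sets at each stage, with VWF at 60 days and PECAM1 at 120 days.

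**Figure D1:**
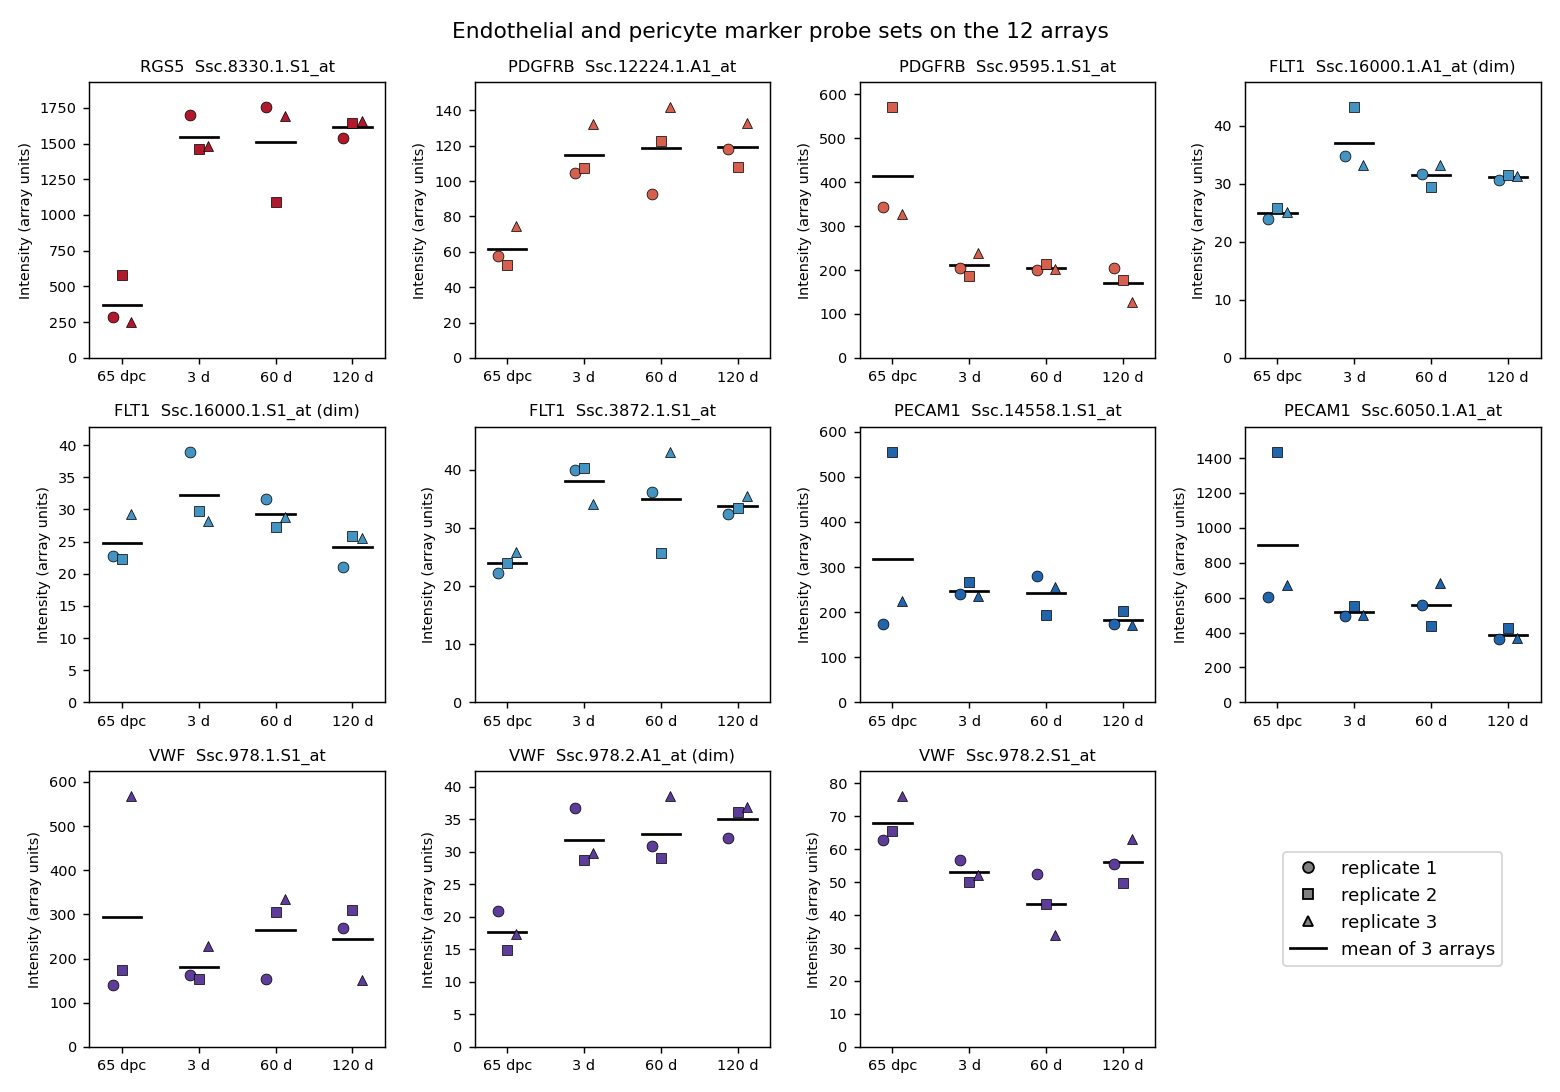
Intensity of the 11 marker probe sets on the 12 arrays, in array units, by stage in order of age. Symbols are replicates 1 to 3 and bars are stage means; RGS5 lies between 249.5 and 581 in the fetus and between 1091 and 1753 after birth.

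RGS5, the pericyte regulator of G protein signalling, rose to about 4 times its fetal intensity by 3 days. Its probe set read 289, 581 and 249.5 in the fetus, 1699, 1459.8 and 1484 at 3 days, 1753, 1091 and 1696 at 60 days, and 1537, 1646 and 1655 at 120 days. All 9 arrays after birth were above all 3 fetal arrays, and the stages after birth overlapped one another. In stage order the means were 373 ± 181, 1548 ± 132, 1513 ± 367 and 1613 ± 65.4 (SD, n = 3 each), a ratio of 4.15 for 3 days over the fetus. The log2 change was 2.08 ± 0.28 (SE; 95% interval 1.46 to 2.70; limma adjusted p = 0.000193). In absolute size this exceeded the change of 97.9% of all tested probe sets. The next steps gave -0.06 ± 0.28 (limma adjusted p = 0.943) and 0.12 ± 0.28 (limma adjusted p = 0.962), and their intervals allow changes of up to -0.68 and 0.74. Without fetal replicate 2 the change at 3 days was 2.43. RGS5 kept its call under all 25 alternatives, with changes from 1.80 to 2.43.

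Of 10 measured genes of the RGS family and of the signals it dampens, 0 rose and 3 fell at 3 days against the fetus, beside 20.3% and 22.6% of all probe sets, and the list's median was -0.29. RGS2, which acts on Gq signalling in vessel walls, averaged 90.9 ± 33.4 at 3 days and 574 ± 245 in the fetus (SD, n = 3 each; log2 change -2.37 ± 0.30, limma adjusted p = 0.000108). The inhibitory G protein subunits on which RGS proteins act fell as well, with log2 changes of -1.55 for GNAI1 (limma adjusted p = 0.00328) and -1.01 for GNAI2 (limma adjusted p = 0.00223). The counts were the same when arrays were centred on the 18 hybridization controls, transcripts added to each sample at known amounts. By that centring 1262 of all probe sets were higher and 5286 lower at this step, against 3286 and 3659. The same 3 lower genes then stand beside a larger share of lower probe sets.

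PDGFRB gave 2 readings that went opposite ways after birth. The brighter probe set read 344, 571 and 327 in the fetus, 205, 187 and 239 at 3 days, 199, 214 and 202 at 60 days, and 205, 178 and 126 at 120 days. Every fetal array was above every array after birth. Its mean of 210.5 ± 26.6 at 3 days was 0.509 of the 414 ± 136 in the fetus (SD, n = 3 each), a log2 change of -0.87 ± 0.23 (95% interval -1.37 to -0.37; limma adjusted p = 0.00983). The change against the fetus was -0.90 at 60 days (limma adjusted p = 0.00875) and -1.17 at 120 days (limma adjusted p = 0.00148). Without fetal replicate 2 the change at 3 days was -0.63 (limma adjusted p = 0.0361). When 60 days replicate 1 was left out as well, the call at 60 days was lost (-0.64, limma adjusted p = 0.0533).

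The dimmer PDGFRB probe set read 57.9, 52.6 and 74.8 in the fetus, 105, 107.5 and 132 at 3 days, 92.5, 123 and 142 at 60 days, and 118, 108 and 133 at 120 days. All fetal arrays were below all arrays after birth. The mean of 115 ± 15.2 at 3 days was 1.86 times the 61.8 ± 11.6 in the fetus (SD, n = 3 each), a log2 change of 0.72 ± 0.17 (95% interval 0.35 to 1.08; limma adjusted p = 0.00499). The change against the fetus was 0.75 at 60 days and 0.77 at 120 days, both called. Centring on the hybridization controls ended all 3 calls, with 0.44 (limma adjusted p = 0.0649), 0.38 (limma adjusted p = 0.104) and 0.34 (limma adjusted p = 0.131). Over the 12 arrays the PDGFRB readings had r = -0.84, and over the 9 arrays after birth r = -0.08. The annotation assigns both to one gene, and the transcript positions they probe were not used here.

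Markers of fibroblasts, which also carry PDGFRB, moved with its brighter reading. Of 13 measured fibroblast and matrix genes 10 fell and 0 rose at 3 days. That was 76.9% and 0% of the list, beside 22.6% lower and 20.3% higher of all probe sets. Without fetal replicate 2 the counts were 8 and 0. The sum of these genes ranged from 6385 to 9101 at 3 days and from 18500.4 to 29388 in the fetus. DCN, a collagen-binding proteoglycan and the list's measured defining marker, read between 1758 and 2275 at 3 days and between 3872 and 5176 in the fetus. The part of these cells in the PDGFRB reading was not tested.

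**Figure D2:**
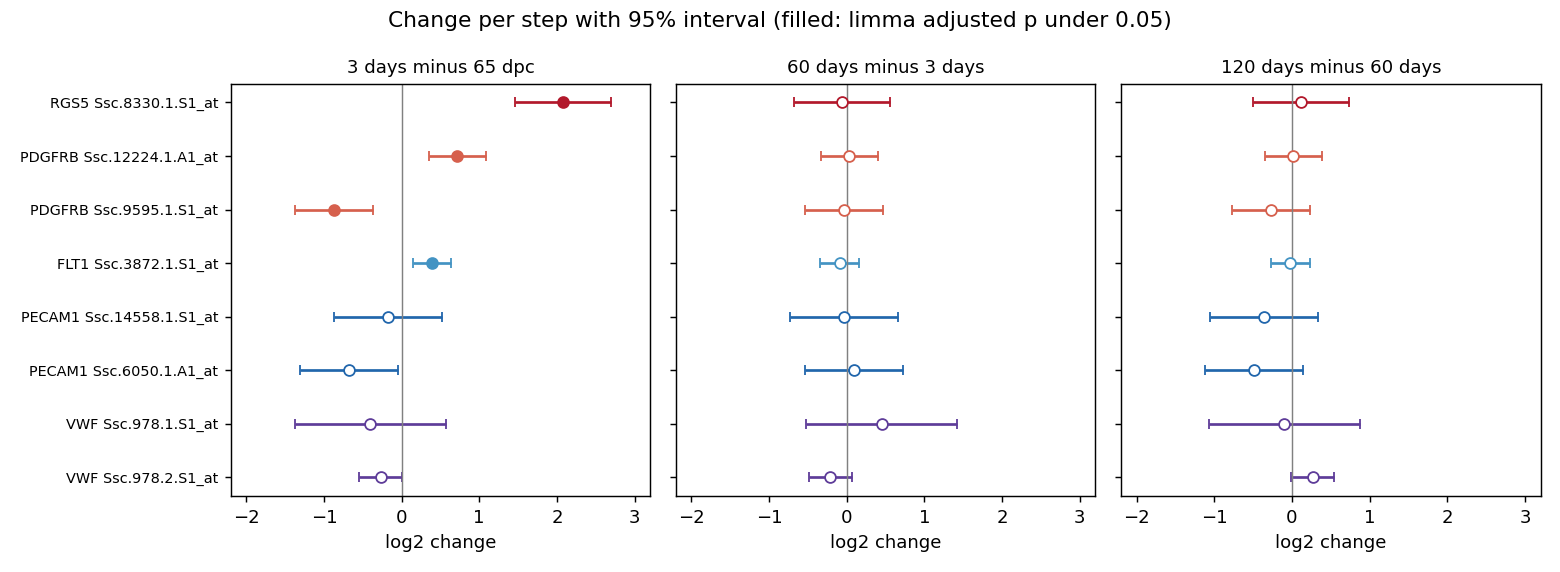
Log2 change of the 8 tested marker probe sets at the 3 adjacent steps, later minus earlier stage, with 95% intervals from limma. Filled points passed an adjusted p of 0.05; there are 4 at the first step, with RGS5 at 2.08 and the PDGFRB probe sets on opposite sides of 0, and 0 at the others.

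PECAM1, the junction molecule of endothelial cells, was lower at 120 days than in the fetus by 1 of its 2 probe sets. The brighter one read 602, 1435 and 672 in the fetus, 494, 553 and 501 at 3 days, 559, 437 and 683 at 60 days, and 364, 426 and 369.7 at 120 days. Each array at 3 and at 120 days was below each fetal array, and 60 days overlapped the fetus. At 120 days the mean was 386 ± 34.3, against 903 ± 462 in the fetus (SD, n = 3 each), a ratio of 0.428 and a log2 change of -1.08 ± 0.29 (95% interval -1.71 to -0.44; limma adjusted p = 0.00938). It stayed called without each array in turn, with changes from -1.31 to -0.69, the smallest without fetal replicate 2. At 3 days the change was -0.68 ± 0.29 and missed the threshold (limma adjusted p = 0.0790), and without fetal replicate 2 it was -0.29. It was called without fetal replicate 1 (-0.91, limma adjusted p = 0.0371) and with centring on the hybridization controls (-0.95, limma adjusted p = 0.0204).

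The dimmer PECAM1 probe set was called in no comparison. It read 174, 555 and 225 in the fetus, 241, 266 and 235 at 3 days, 279, 193 and 256 at 60 days, and 175, 203 and 172 at 120 days. The fetal array at 555 was the highest of its stage, and the fetal mean was 318 ± 207 (SD, n = 3). The change at 120 days was -0.57 ± 0.32 (limma adjusted p = 0.160), and its interval from -1.27 to 0.13 includes the estimate of the brighter probe set. Without fetal replicate 2, the array at 555, it was -0.11 (limma adjusted p = 0.692), and the change at 3 days was 0.29, against -0.18 with all arrays. The change at 120 days passed without fetal replicate 1 (-0.89, limma adjusted p = 0.0389) and with hybridization control centring (-1.003, limma adjusted p = 0.0217). Between the PECAM1 probe sets r was 0.88 over 12 arrays and 0.96 for deviations from the stage means.

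FLT1, the VEGFA-binding receptor, was dim throughout. Of its 3 probe sets 1 was tested, and it qualified through 4 arrays after birth and 0 in the fetus, so a higher value after birth was a condition for testing it. It read 22.2, 23.9 and 25.8 in the fetus, 39.9, 40.3 and 34.1 at 3 days, 36.1, 25.6 and 43.0 at 60 days, and 32.3, 33.4 and 35.4 at 120 days. Arrays at 3 days and at 120 days lay above the fetal ones, and 60 days overlapped them. The change at 3 days was 0.39 ± 0.11 (limma adjusted p = 0.0159), with a mean of 38.1 ± 3.45 at 3 days and 24.0 ± 1.82 in the fetus (SD, n = 3 each). With a pseudocount of 1 in place of 21 it was 0.65. The call was lost without fetal replicate 1 (limma adjusted p = 0.0521), without 3 days replicate 1 (0.0502) or replicate 2 (0.0538), and with hybridization control centring (0.11, limma adjusted p = 0.516).

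The remaining FLT1 probe sets were above the 40th percentile on 1 array each. One averaged 37.1 ± 5.35 at 3 days and read 24.0 to 25.8 in the fetus, and the other averaged 32.3 ± 5.80 at 3 days and 24.8 ± 3.89 in the fetus (SD, n = 3 each). In a limma fit without the filter their changes were 0.33 (adjusted p = 0.00965) and 0.22 (adjusted p = 0.100). At 120 days all 3 FLT1 probe sets averaged between 24.1 and 33.7.

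VWF was called in no comparison by its brightest probe set, whose arrays varied widely within stages. It read 139.7, 173 and 567 in the fetus, 162, 153 and 228 at 3 days, 153, 306 and 335 at 60 days, and 269, 309 and 152 at 120 days. All 4 stages overlapped. The change at 3 days was -0.40 ± 0.45 (95% interval -1.38 to 0.57; limma adjusted p = 0.491), so a change of 1 log2 unit downward lies within the interval. Without fetal replicate 3 it was 0.18 (limma adjusted p = 0.706). Across the 4 stages the limma F test gave an adjusted p of 0.784.

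Fetal replicate 3 was 1.16 above its stage mean for this VWF probe set, on the log2 scale, and its immune cell genes had a median deviation of 1.32. PTPRC (CD45), the leukocyte marker, read 59.0 there and 18.4 and 17.1 on the other fetal arrays. The platelet sum, over 3 genes, was 205 on that array, against 224 and 202, and ITGA2B, the defining platelet integrin, read 38.8, against 40.7 and 32.7. IRF1, an interferon-induced transcription factor, read 1211 there, against 44.1 and 48.5. The part of immune cells in the VWF value of this array was not tested.

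The dimmer tested VWF probe set read 62.8, 65.4 and 76.0 in the fetus, 56.7, 49.9 and 52.3 at 3 days, 52.6, 43.5 and 33.8 at 60 days, and 55.4, 49.6 and 62.95 at 120 days. Arrays at 3 and 60 days were all below the fetal ones, and 120 days overlapped them by a small margin. It was called at 60 days against the fetus, with a mean of 43.3 ± 9.38 at 60 days and 68.1 ± 6.99 in the fetus (SD, n = 3 each) and a log2 change of -0.48 ± 0.13 (limma adjusted p = 0.0110). The third VWF probe set was too dim for the filter and averaged 31.8 ± 4.29 at 3 days and 17.7 ± 3.02 in the fetus. Without the filter its change was 0.45 (limma adjusted p = 0.00420), opposite in sign to the other VWF probe sets at that step. At 60 days against the fetus it was 0.47 higher in that fit (limma adjusted p = 0.00317), opposite to the call of the dimmer tested probe set. At 120 days it was 0.54 higher (limma adjusted p = 0.00105). The VWF probe sets therefore give no single direction.

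**Figure D3:**
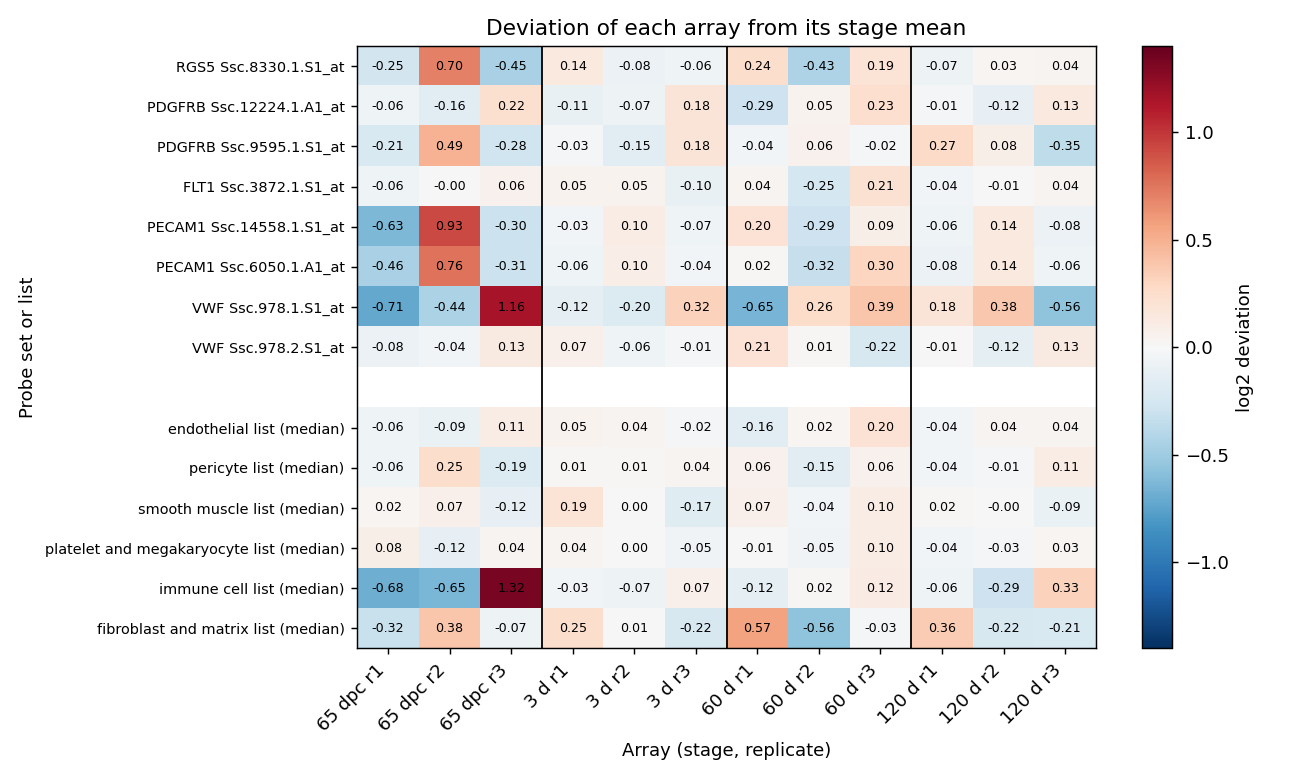
Difference of each array from the mean of its own stage, on the log2 scale, for the 8 tested probe sets and for the median gene of 6 cell type lists. Columns are arrays in order of age; fetal replicate 2 stands out for RGS5 (0.70) and PECAM1 (0.93 and 0.76), and fetal replicate 3 for VWF (1.16) and the immune cell list (1.32).

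After each stage mean was removed, RGS5 had r = 0.88 and 0.90 with the PECAM1 probe sets over the 12 arrays, 0.56 with the brighter PDGFRB reading, and -0.47 with the brightest VWF probe set. These are descriptions over arrays that share their hybridizations. Relative to its stage mean RGS5 was highest on fetal replicate 2 (0.70) and lowest on fetal replicate 3 (-0.45) and 60 days replicate 2 (-0.43). On fetal replicate 2, PECAM1 deviated by 0.93 and 0.76, so that this array weighs heavily in the r between them. At 60 days replicate 2, PECAM1 deviated by -0.29 and -0.32 and FLT1 by -0.25.

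The endothelial list had calls in both directions. Of 27 measured genes 5 rose and 2 fell at 3 days against the fetus, which is 18.5% and 7.41% of the list beside 20.3% and 22.6% of all probe sets, and the list's median change was 0.22. Without fetal replicate 2 the counts were 3 and 1, and without fetal replicate 3 they were 8 and 2. GPIHBP1, which carries lipoprotein lipase to the capillary lumen, averaged 170 ± 22.2 at 3 days and 59.4 ± 19.0 in the fetus (SD, n = 3 each; log2 change 1.26 ± 0.20, limma adjusted p = 0.000405). NOS3, the endothelial nitric oxide synthase, rose by 0.52 (limma adjusted p = 0.0160), SELP (P-selectin, stored together with VWF) by 0.43 (limma adjusted p = 0.0194), and S1PR1, a lipid receptor that steadies vessels, by 0.73 (limma adjusted p = 0.0295). FLT1 was the fifth, and the only one of them that passed the filter through arrays after birth alone. Without fetal replicate 2 the calls of SELP (limma adjusted p = 0.0640) and S1PR1 (limma adjusted p = 0.0780) were lost.

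The genes that fell were CDH5 and CD34. CDH5, the cadherin of endothelial junctions, read 370, 342 and 292 at 3 days, against 516, 986 and 486 in the fetus (log2 change -0.88 ± 0.28, limma adjusted p = 0.0236). Its highest array was fetal replicate 2, as for PECAM1, and without it the change was -0.56 and missed the threshold (limma adjusted p = 0.0904). Its arrays at 3 days were all below the fetal ones. CD34, which marks endothelium and also other progenitor and stromal cells, averaged 91.7 ± 16.3 at 3 days and 162 ± 21.3 in the fetus (SD, n = 3 each; limma adjusted p = 0.00333). KDR, the signalling receptor for VEGFA, was dim, at 42.4 ± 8.25 at 3 days and 33.0 ± 2.45 in the fetus (limma adjusted p = 0.133). ENG, a TGF-beta co-receptor of endothelium, averaged 109 ± 7.52 and 82.2 ± 25.3 at these stages (limma adjusted p = 0.108).

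Centring on the hybridization controls moved the whole array downward at 3 days, with 1262 probe sets then called higher and 5286 lower, against 3286 and 3659, and a median of -0.28. The endothelial list then had 1 gene higher and 6 lower, with a median of -0.06. The list's sum overlapped between stages, from 5649 to 6082 at 3 days and from 5874 to 6951 in the fetus. At 120 days against the fetus 7 genes were higher and 5 lower, and 1 and 8 with that centring, by which 1197 and 7134 of all probe sets were higher and lower, against 3778 and 4048. Without fetal replicate 2 the list's counts were 4 and 4, and without fetal replicate 3 they were 7 and 3. Among the 5 genes lower with all arrays, CLDN5, the tight junction claudin of endothelium, was 0.85 lower on the log2 scale (limma adjusted p = 0.0214). ICAM2, an endothelial adhesion molecule and also 1 of the 5, was 0.68 lower (limma adjusted p = 0.0233). Without fetal replicate 3 both calls were lost (limma adjusted p = 0.0658 for CLDN5 and 0.0868 for ICAM2).

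Among 10 measured pericyte genes, 2 rose and 2 fell at 3 days, a share in each direction close to that of all probe sets, with a median of -0.33. Besides RGS5, HIGD1B, a mitochondrial protein found in pericytes, averaged 39.6 ± 5.79 at 3 days and 18.2 ± 0.775 in the fetus (SD, n = 3 each; log2 change 0.63 ± 0.14, limma adjusted p = 0.00379). HIGD1B passed the filter through 6 arrays after birth and 0 in the fetus, so its higher value was a condition for testing it. PDGFRB counted among the genes that fell by its brighter probe set, while its dimmer one was called higher (0.72, limma adjusted p = 0.00499). Besides PDGFRB, MCAM (CD146), an adhesion molecule of pericytes and endothelium, averaged 75.0 ± 18.9 at 3 days and 168 ± 40.3 in the fetus (log2 change -0.97 ± 0.19, limma adjusted p = 0.00160). With hybridization control centring HIGD1B lost its call (limma adjusted p = 0.0788), which left RGS5 higher and 3 genes lower. Of all probe sets 1262 were then higher and 5286 lower, against 3286 and 3659.

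The smooth muscle list had calls in both directions. ACTA2, the actin of vessel smooth muscle, averaged 2463 ± 683, 2441 ± 487, 2278 ± 176 and 2420 ± 151 in stage order, and its log2 change at 3 days was 0.01 ± 0.22 (95% interval -0.46 to 0.47; limma adjusted p = 0.984). Of 11 measured genes in the list 1 rose and 2 fell, 27.3% of the list beside 43.0% of all probe sets called. The riser was TPM2 (0.90, limma adjusted p = 0.000732), a tropomyosin also made by muscle fibres, and ACTG2 (-1.15, limma adjusted p = 0.000693) and CALD1 (-1.17, limma adjusted p = 0.00459), both regulators or filaments of non-striated contraction, were the ones that fell.

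**Figure D4:**
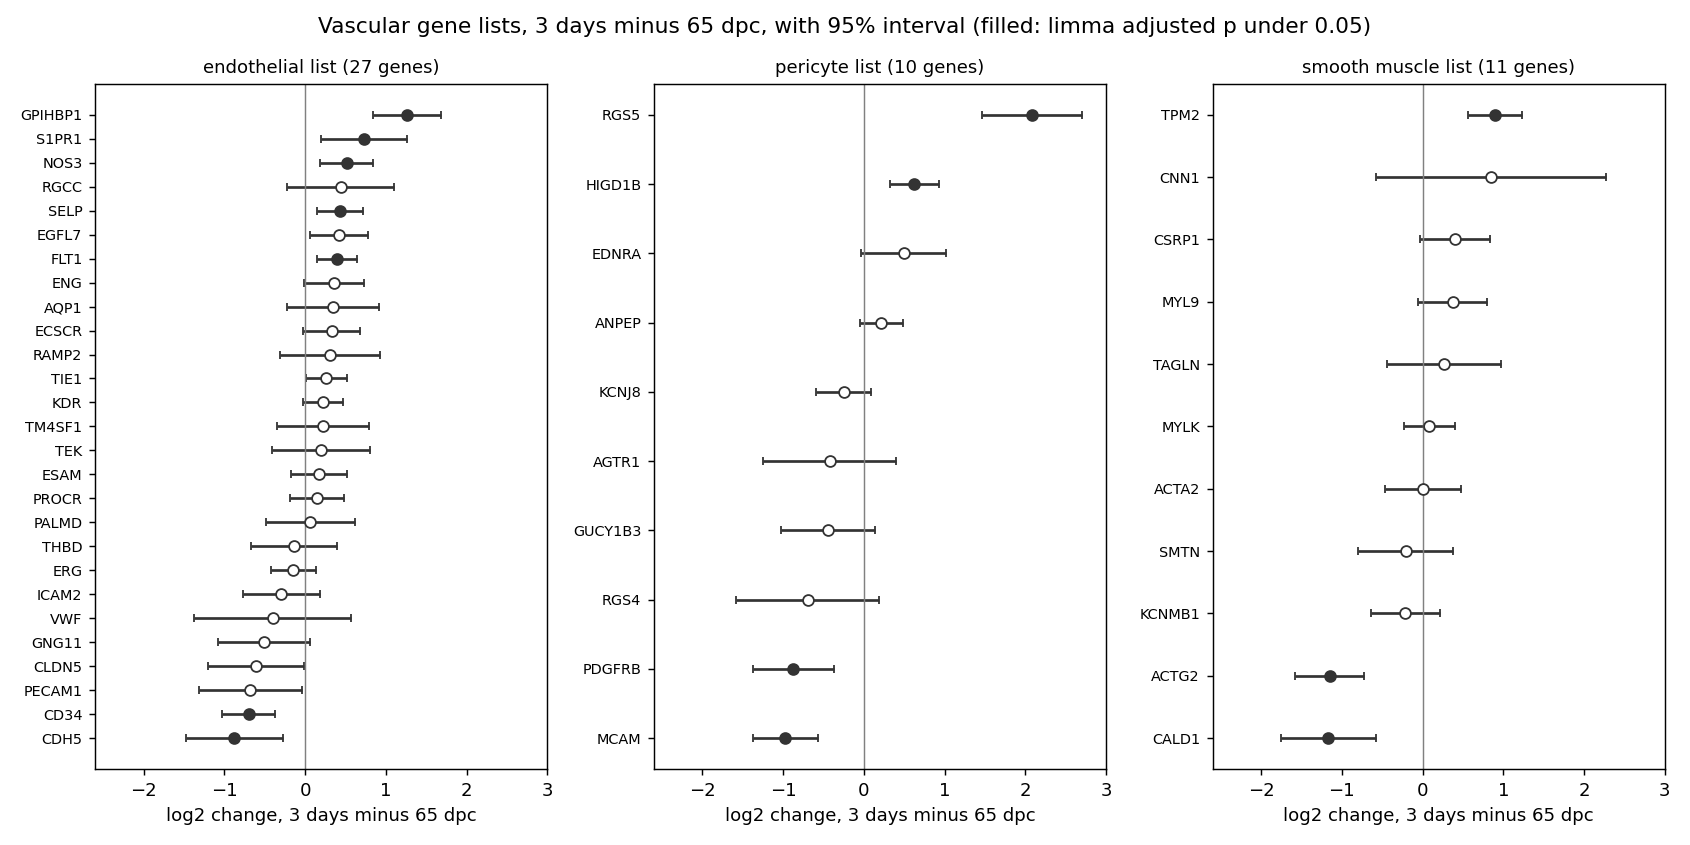
Log2 change at 3 days minus 65 dpc, with 95% limma intervals, for the measured genes of the endothelial (27), pericyte (10) and smooth muscle (11) lists. Filled points passed an adjusted p of 0.05, and in each list they lie on both sides of 0; RGS5, at 2.08, is the highest of the pericyte list.

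Ligands and receptors of vessel growth changed at different steps. Of 12 measured genes of VEGF, PDGF and angiopoietin signalling, 3 rose and 3 fell at 3 days, with a median of 0.21. That is 25% in each direction, close to the 20.3% higher and 22.6% lower of all probe sets. Without fetal replicate 3 the counts were 4 and 3. PDGFRB counted among those that fell, by its brighter probe set. ANGPT2, the angiopoietin that endothelial cells release to loosen vessels, averaged 65.1 ± 6.33 at 3 days and 163 ± 43.7 in the fetus (SD, n = 3 each; log2 change -1.07 ± 0.19, limma adjusted p = 0.000887). It was also lower than in the fetus at 120 days, by 1.17. HIF1A, the oxygen-sensing subunit that induces VEGFA under low oxygen, fell by 1.15 at 3 days (limma adjusted p = 0.00834). HIF1A was read by the brightest of its 4 tested probe sets, and the others are not given here. ANGPTL4, a secreted inhibitor of lipoprotein lipase, rose by 1.88 ± 0.38 (limma adjusted p = 0.00201), to between 71.6 and 229 at 3 days, against 17.3 to 28.9 in the fetus. Like FLT1 it passed the filter through arrays after birth alone, so that 1 of the 3 risers was free of this condition. EPAS1, the endothelial relative of HIF1A, rose by 1.004 (limma adjusted p = 0.0150), and was that riser.

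VEGFA was the only gene of the vascular lists called between 3 and 60 days, with each gene read by its brightest tested probe set. VEGFA had 4 tested probe sets, and the others are not given here. It read 525, 590 and 551 in the fetus, 621, 633 and 721 at 3 days, 1163, 1234 and 1216 at 60 days, and 1079, 1128 and 1095 at 120 days. All arrays at 60 and 120 days were above all earlier ones. The step from 3 to 60 days was 0.85 ± 0.16 on the log2 scale (limma adjusted p = 0.0248), and with hybridization control centring it missed the threshold (limma adjusted p = 0.0771). Its receptors FLT1 and KDR had changes of -0.09 and -0.15 at that step, and neither was called.

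The angiopoietin receptor TEK was 0.93 higher at 60 days than in the fetus (limma adjusted p = 0.0196), a call lost without fetal replicate 3 (0.66, limma adjusted p = 0.0733). It averaged 157 ± 73.7, 173 ± 27.5, 306 ± 77.0 and 254 ± 23.7 in stage order. TIE1, its orphan partner, averaged 75.7 ± 7.68 at 120 days and 55.3 ± 8.49 in the fetus (log2 change 0.35, limma adjusted p = 0.0274), a call lost without fetal replicate 2 (limma adjusted p = 0.0980). ANGPT1, the TEK ligand made by cells around the vessel, had stage means between 54.0 and 58.1, and its change at 3 days was -0.13 with an interval from -1.04 to 0.78. The gene for PDGF-B was not among the named probe sets. With hybridization control centring this list had 1 higher and 3 lower at 3 days. All probe sets then had 1262 higher and 5286 lower, against 3286 and 3659.

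**Figure D5:**
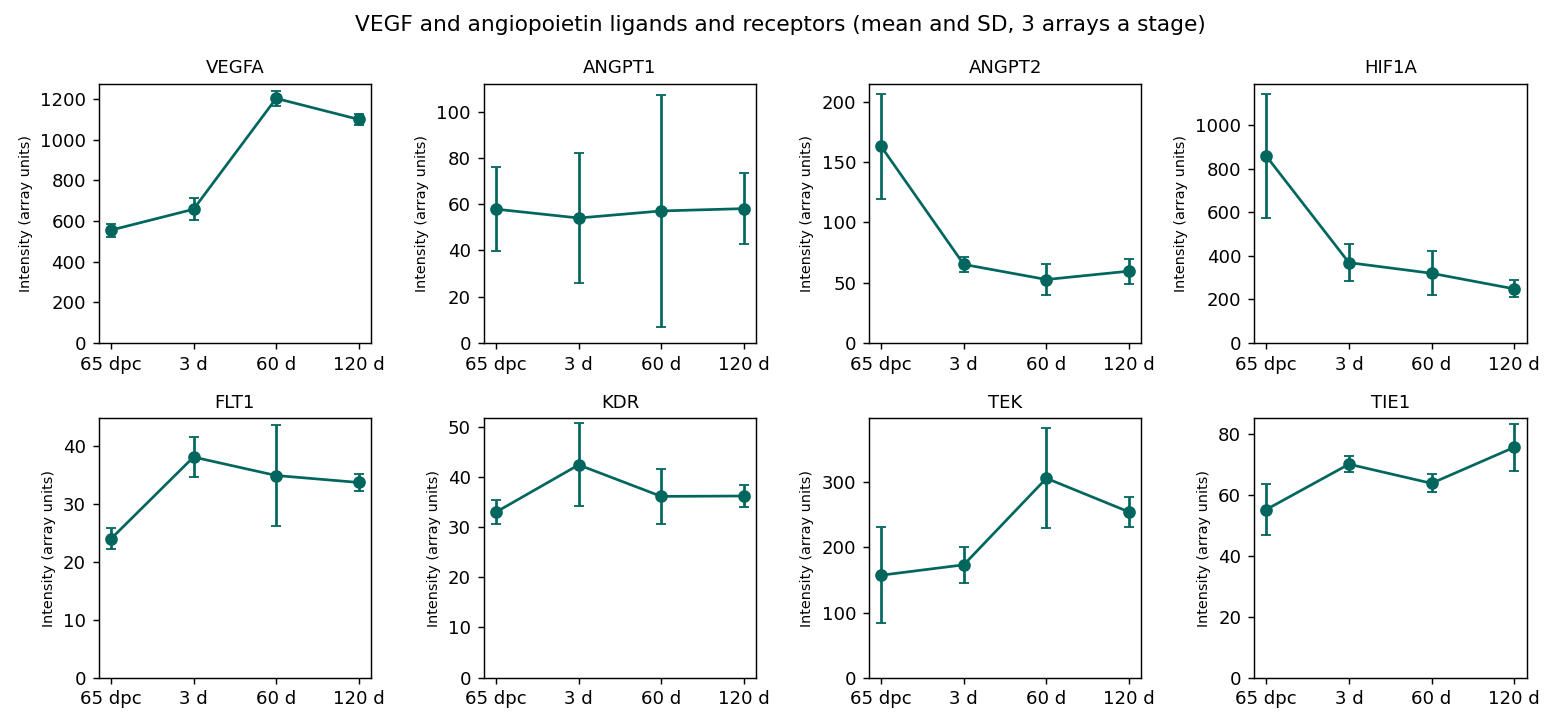
Intensity by stage of VEGF and angiopoietin ligands, receptors and HIF1A, as mean and SD of 3 arrays, in array units from 0. VEGFA lies higher at 60 and 120 days than at 3 days, while ANGPT2 and HIF1A lie lower at every stage after birth than in the fetus.

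Genes that act with VWF in haemostasis had calls both ways. Of 12 measured genes 2 rose and 3 fell at 3 days, with a median of -0.11. Without fetal replicate 2 the counts were 0 and 3, while calls over all probe sets went from 6945 to 5394. The shares of 16.7% higher and 25% lower lie close to the 20.3% and 22.6% of all probe sets. Besides SELP, PLAT, the tissue plasminogen activator of endothelium, rose by 0.87 (limma adjusted p = 0.0347). PLAU, the urokinase activator, fell by 1.19 (limma adjusted p = 0.00224), and PROS1, the anticoagulant protein S, fell by 1.26 (limma adjusted p = 0.00418), beside ANGPT2, which is stored together with VWF. With hybridization control centring 0 were higher and 4 lower, while 1262 of all probe sets were higher and 5286 lower, against 3286 and 3659.

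Lists of other cell types were counted at the same step, at which 20.3% of all probe sets were higher and 22.6% lower. Of 15 measured muscle fibre genes 12 rose and 0 fell, with 14 risers without fetal replicate 2 and 8 without fetal replicate 3, and their sum ranged from 81687 to 85295 at 3 days and from 42992 to 61328 in the fetus. Of 9 immune genes 1 rose and 0 fell, with 0 risers without fetal replicate 2 and 4 without fetal replicate 3. Of 3 lymphatic genes 1 rose (CCL21) and 0 fell, and of 3 platelet genes 1 rose (GP9) and 0 fell. Without fetal replicate 2 GP9 lost its call, which left 0 platelet genes higher. Of 3 erythroid genes 1 fell (HBB), and of 5 satellite cell genes 2 fell (MYF5 and VCAM1). These last lists are too small, and their shares too near those of all probe sets, to read a shift of a cell type from. The part of the fibre shift in the marker values was not tested.

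The genes whose course was most like that of RGS5 over the 12 arrays were SUCLA2, a subunit of succinyl-CoA ligase (r = 0.983), ENO3, the muscle enolase (r = 0.981), and ATP2A1, the calcium pump of fast fibres (r = 0.978). Over the 9 arrays after birth these values were 0.65, 0.45 and 0.09. ATP2A1 read between 3070 and 3997.5 at 3 days and between 375 and 1229 in the fetus, where fetal replicate 2 was again the highest.

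For the brighter PDGFRB reading TMBIM6 came closest (r = 0.983 over 12 arrays and 0.93 after birth), followed by ZNF263 and YLPM1. For the dimmer one GMIP (r = 0.968), TLN1 and EIF1 did. FLT1 was followed by RCC1L (r = 0.952), ADAM9 and NXF1. The brighter PECAM1 probe set was nearest to RBM26 (r = 0.950) and to CDH5 (r = 0.946, and 0.78 after birth), a second endothelial junction gene, with NXF1 next. The dimmer one was nearest to GAPVD1 (r = 0.935), HACD3 and STAM. VWF came nearest to ATG2A (r = 0.864), CD40 (r = 0.853) and IRF1 (r = 0.837), and its dimmer tested probe set to TWIST2 (r = 0.879), GRAMD2B and TBC1D22A. CD40, a receptor of immune and endothelial cells, read 96.7 on fetal replicate 3, against 17.6 and 11.8 on the other fetal arrays.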

How the data were processed

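Total RNA of the longissimus dorsi was extracted with Trizol and biotin-labelled, and each sample was hybridized to 1 Affymetrix porcine array, per the labels' protocols. The authors deposited 1 intensity per probe set and array on a linear scale, and the submitters' processing notes name GCOS 1.4. How probes were summarised, corrected for background and scaled is not given in the sources used here, and no further normalization was applied. Of 24123 rows, 124 controls were set aside. Intensities were converted to log2(value + 21), where 21 is the 25th percentile, from the deposited values, and 16166 probe sets (67.4%) passed the filter. Symbols come from the platform annotation, and all 11 marker probe sets matched the RefSeq symbol through Entrez identifiers. No sequence or coordinate was used here.

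One limma fit had 1 mean per stage and a variance trend (8 residual and 4.26 prior degrees of freedom), with two-sided tests. Each stage is given by the mean and SD of its 3 arrays, whose number limits the precision. Where nothing says that the animals came from separate litters, p-values measure only the spread between these samples. Pearson r was computed on the log2 scale. A gene of a list is represented by its tested probe set of highest mean. The members and the lists were chosen with earlier results of these data known. Named were all marker probe sets, up to 4 called genes per list and adjacent step with the smallest p, list members called against their list's direction, the 3 genes most like each tested marker, and a set of vessel and cell type genes; S1PR1 and EPAS1 were named after their values were seen. On simulated data with 100 of 16166 probe sets changed at each size, the fit recovered 50%, 63% and 56% of 2-fold and 94%, 93% and 97% of 4-fold changes at the 3 adjacent steps, with 8 false calls at each. In the data 43.0% of all probe sets were called at 3 days against the fetus, far more than were changed in the simulation. The recovery therefore does not describe that step. Values were recomputed with a pseudocount of 1 or 51, a filter at the 60th percentile or none, quantile normalization, centring on medians or hybridization controls, no variance trend or a robust one, weighted arrays, a fit to the 6 compared arrays, a replicate block, and arrays left out. Software was R 4.3.3, limma 3.58.1, Python 3.11.15, NumPy 2.4.6, pandas 2.3.3 and matplotlib 3.10.9.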

Additional observations from a re-analysis of the deposited data

How the results depend on the processing

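Under 25 alternatives, 1320 of 1378 recomputed values for 56 marker results kept their side of the threshold, 37 lost a call, 21 gained one and 0 turned round while called. Of the values that were not called, 50 turned their sign, over 20 results. The marker probe sets called across the 4 stages numbered 5 of 8, beside 46.9% of all probe sets, and 3 with quantile normalization. With the replicate block they were also 3. Leaving out each array in turn gave 3 to 5, with 3 without fetal replicate 2, without any 1 array of 3 days and without any 1 of 120 days. The 2 that dropped out in the quantile and block fits were PECAM1 (limma adjusted p = 0.0474 in the fit as reported) and VWF (0.0455). The replicate numbers share only a number: deviations of same-numbered arrays had r from -0.42 to 0.30. Over all probe sets, 247 were called at 60 against 3 days, 926 with array weights, 39 with only the 6 arrays compared, 161 with the block and 75 to 297 without single arrays. At 120 against 3 days 714 were called, 4756 with array weights, 1525 with only the 6 arrays, 1147 without both fetal replicate 2 and 60 days replicate 1 and 188 to 862 without single arrays; at 120 against 60 days 0 were called, 1 without the filter and 5 without 60 days replicate 3. Centring on the hybridization controls left 19.3% of the calls at 3 days against the fetus higher, against 47.3%, and moved the median of all probe sets by -0.28, -0.37 and -0.43 at 3, 60 and 120 days. Signals near background limit FLT1 and the dimmer VWF probe sets, and 3 arrays a stage limit the rest.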
